A study of Mus musculus with 6 samples.

Results

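Mitochondrial ribosomal protein genes encode the proteins of the ribosome that sits in the mitochondrial matrix. That ribosome has a small subunit, which binds the messenger RNA and decodes it, and a large subunit, which joins the amino acids. It makes the handful of respiratory chain proteins that the mitochondrial genome encodes, while its own proteins are all encoded in the nucleus, made in the cytosol and imported. Maturing red cells depend on mitochondria for heme synthesis and for iron-sulfur clusters, and they lose their mitochondria at the end of differentiation.

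The genes were taken by symbol, as all protein-coding genes named Mrpl or Mrps followed by a number. There were 78 of them among 32288 genes and unnamed transcripts on the array, and all 78 were well above background on all 6 arrays. By the structural nomenclature of ribosomes, 51 encode proteins of the large subunit, including Mrps30 and Mrps18a despite their names, and 26 encode proteins of the small subunit. Mrps36 is named like the others, but its product belongs to the alpha-ketoglutarate dehydrogenase complex. Each gene was represented by its brightest probe. The accession printed after a gene is the transcript that the array design gives for that probe.

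Bone marrow cells from femurs were profiled on 6 one-colour Agilent arrays, 1 array per sample. All animals were 10-week-old male ISAM mice of mixed strain, with the genotype Epo-/-::3.3K-Epo3'-Tg458, a mutant that lacks the endogenous Epo gene, carries an Epo transgene and models anemia from a shortage of erythropoietin. No wild-type marrow was compared. Of the 6 samples, 3 came from mice injected intraperitoneally with recombinant human erythropoietin, abbreviated rHuEPO, at a dose of 3000 U/kg and analysed after 6 h. The other 3 formed the control arm: 1 received no injection, and 2 received phosphate-buffered saline (PBS) and were analysed at the same 6 h. Separate animals are not named in the labels, which only number the samples, so p-values measure no more than the spread between these samples and that spread may be technical. In whole marrow, a change in the share of a cell type and a change in RNA per cell cannot be told apart.

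The untreated array and rHuEPO replicate 1 shared slide 1, and the other 4 arrays shared slide 2. Each slide had its own scan. The 75th percentile signal of the arrays lay between 220.7 and 264.0, and between 46.2% and 50.5% of gene spots were well above background. Precision is limited by having only 6 arrays. Of the marrow markers looked up, 14 of 15 erythroid and 13 of 15 neutrophil genes were measured, with Hba-a1, Hbb-bt, S100a9 and Ltf well above background on all 6 arrays. All levels are log2 of the processed signal over the array's 75th percentile, and a change is a log2 difference, rHuEPO minus control, with its standard error (SE) from limma fitted over all 14853 tested genes.

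The members lay mostly above 0 after rHuEPO, and the shifts were small. The change was above 0 for 74 of the 78 genes, against 47.3% of all tested genes, and its median was 0.22, against -0.015 over all genes. It ran from -0.11 for Mrps36 to 0.68 for Mrps18b. No member passed the test: limma with Benjamini-Hochberg adjustment over all genes called 0 of the 78 in either direction, where it called 0.0673% of all genes higher and 0% lower. The smallest adjusted p was 0.856. At an unadjusted p under 0.05 it listed 4 members higher and 0 lower (2.44% and 2.51% of all genes). With slide as a block the adjusted test again called 0 members (0.0741% of all genes higher and 0% lower; smallest limma adjusted p = 0.289), and an unadjusted p under 0.05 was reached by 17 members above 0 and by 0 below it (5.62% and 5.69% of all genes). In the plot of changes the standard errors, from 0.16 to 0.42, are about as large as the changes of most members.

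**Figure D1:**
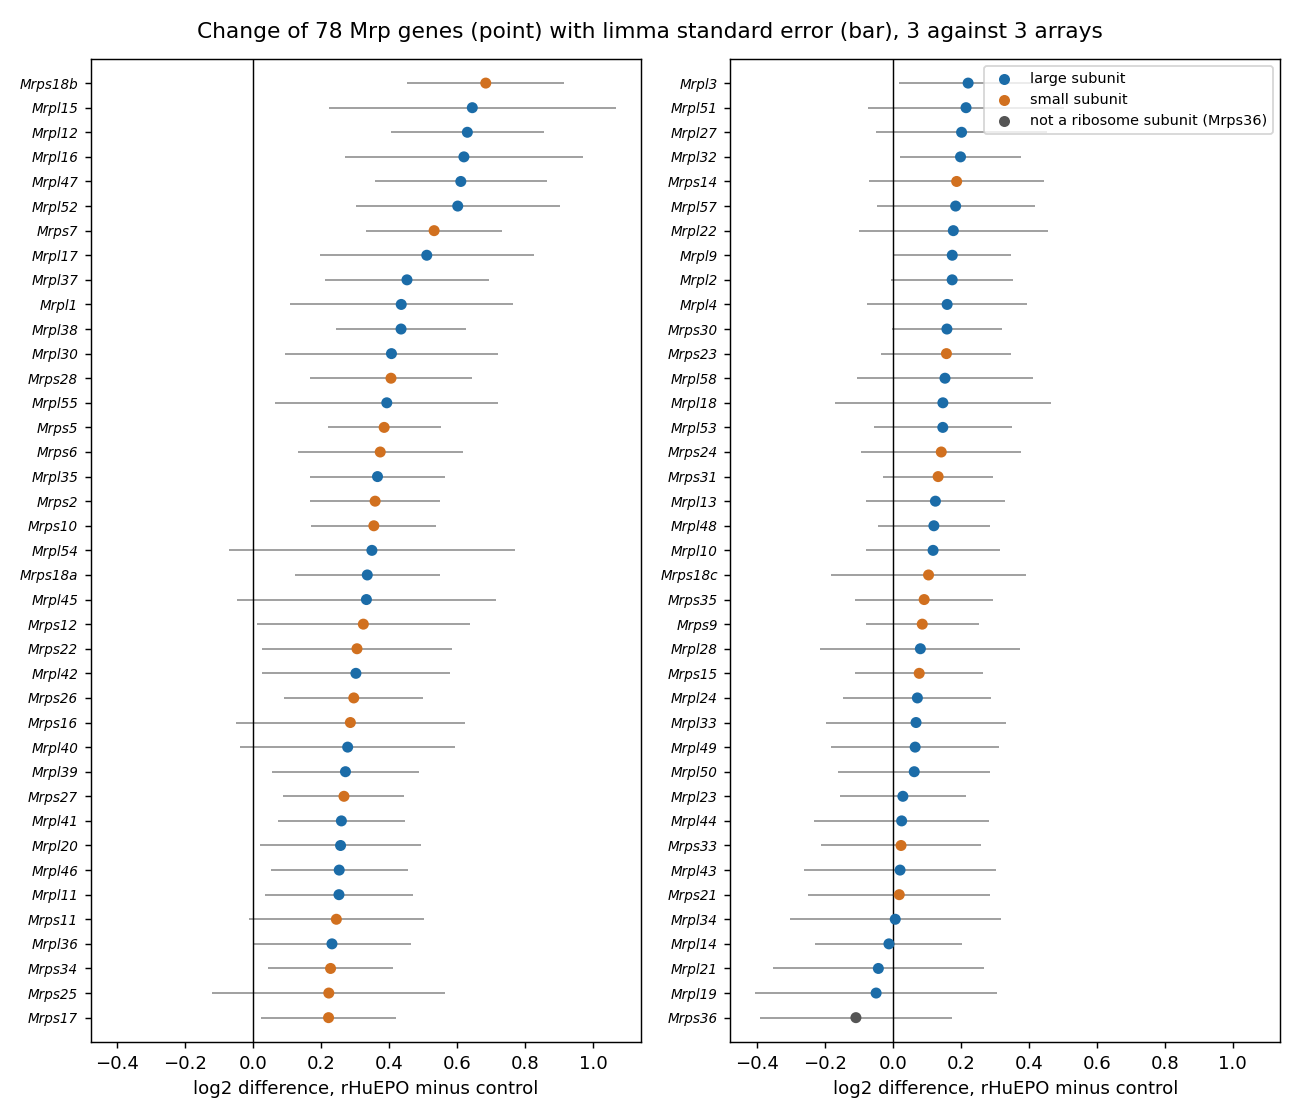
Log2 difference, rHuEPO minus control, of each of the 78 genes (points; blue for the large subunit, orange for the small, grey for Mrps36) with the limma standard error (bars), 3 against 3 arrays. The points run from -0.11 to 0.68, and 4 of them lie below 0.

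The untreated array was the lowest of the 6 arrays for 68 of the 78 genes (27.5% of all genes), and rHuEPO replicate 3 was the highest for 60 (22.3% of all genes). The mean deviation of the 78 genes from their own 6-array means was -0.47 on the untreated array, 0.060 and 0.049 on the PBS arrays, and -0.15, 0.16 and 0.35 on rHuEPO replicates 1, 2 and 3. The array of rHuEPO replicate 1, on the slide of the untreated array, lay below both PBS arrays as a mean, and it did so for 49 of the genes one by one (46.5% of all genes). Without the untreated array the median change was 0.050 (against -0.059 over all genes) and 46 members lay above 0 (40.1% of all genes). The low and high arrays were not particular to the members. Cytosolic ribosomal protein genes had mean deviations of -0.31 on the untreated array and -0.26 and 0.32 on rHuEPO replicates 1 and 3. For respiratory chain and ATP synthase genes these were -0.44, -0.20 and 0.30. Of these lists 69 of 81 and 42 of 80 genes were highest on rHuEPO replicate 3. The grid of centred values shows the pale blue column of rHuEPO replicate 1 beside the red columns of replicates 2 and 3.

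**Figure D2:**
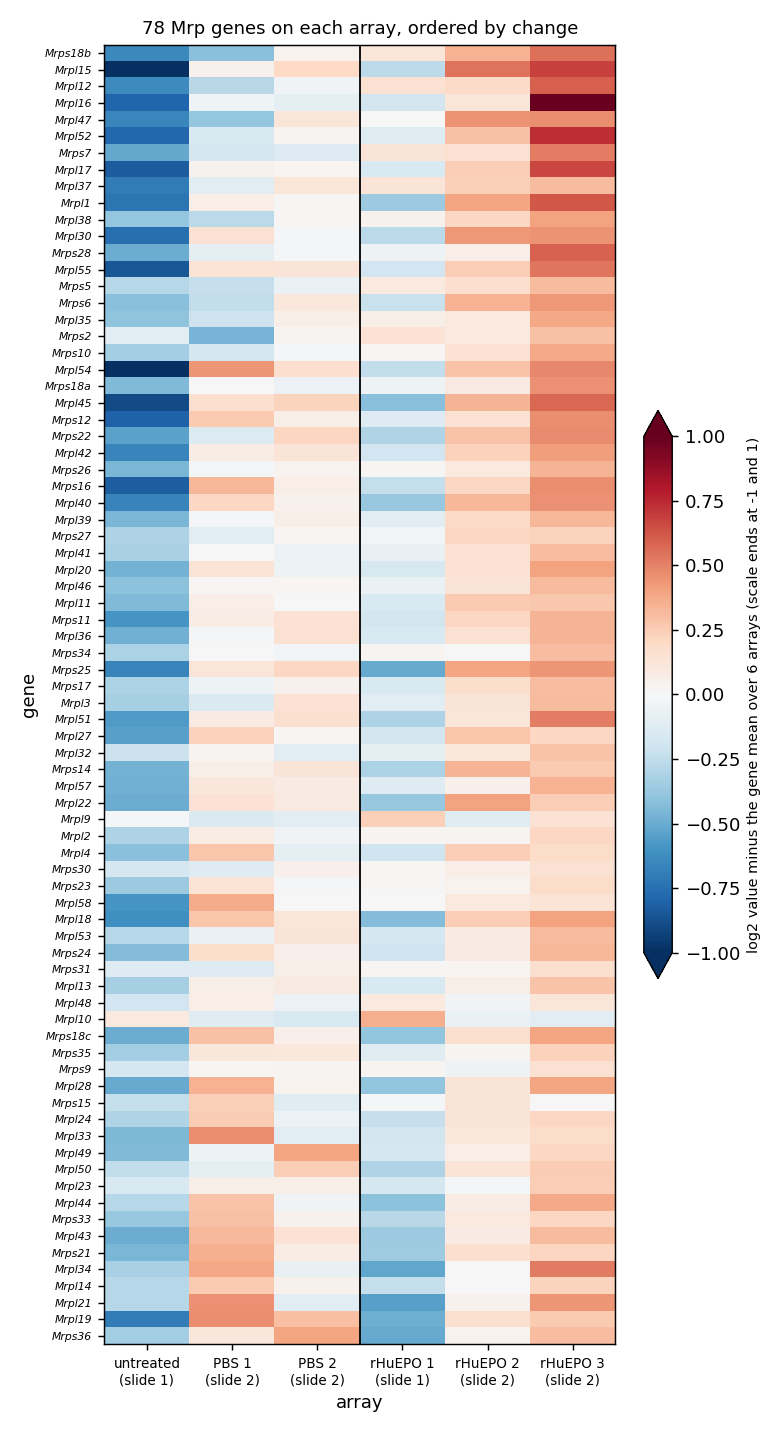
Log2 value of each gene minus its mean over the 6 arrays, 1 row per gene ordered by change and 1 column per array with its slide; blue is below and red above the mean. The untreated column is blue for most genes and is the lowest of the 6 for 68 of them, and rHuEPO 3 is the highest for 60.

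Within each slide the direction was the same for most members. On slide 1 the rHuEPO array lay above the untreated array for 72 of the 78 genes (50.7% of all genes), with a median difference of 0.27 against 0.0048 over all genes. On slide 2 the mean of rHuEPO replicates 2 and 3 lay above the mean of the PBS arrays for 69 (46.9% of all genes), with a median of 0.18 against -0.019. In 64 genes both slides gave a difference above 0 (29.7% of all genes). On slide 2 both rHuEPO arrays lay above both PBS arrays for 41 members and below both for 1 (18.2% and 18.5% of all genes). Slide 1 sets 1 array against 1 and has no test, and its control received no injection. There rHuEPO, injection and sample cannot be told apart, whereas on slide 2 the controls were injected with PBS. A limma fit on the 4 arrays of slide 2, added after seeing the data, called 0 of the 78 (0.0202% of all genes; smallest adjusted p = 0.734). At an unadjusted p under 0.05 it listed 4 members higher and 0 lower (3.53% and 3.16% of all genes).

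**Figure D3:**
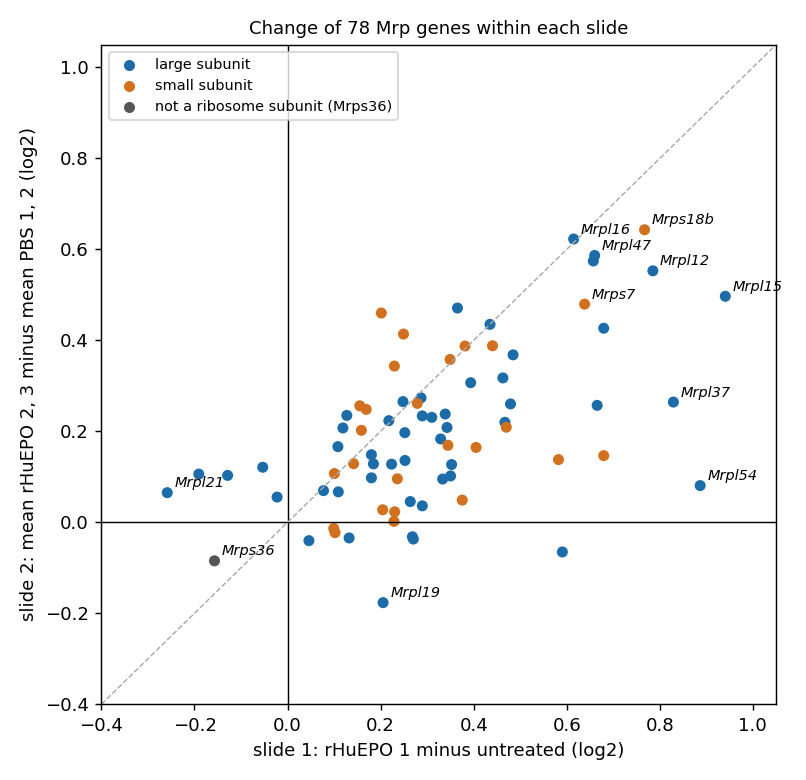
Difference within slide 1 (horizontal, rHuEPO 1 minus untreated) and within slide 2 (vertical, mean of rHuEPO 2 and 3 minus mean of PBS 1 and 2) for the 78 genes, in log2; the dashed line marks equal values. Above 0 on both axes lie 64 genes, with Mrps18b at 0.77 and 0.64 and Mrpl54 at 0.89 and 0.081.

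Transcripts of like brightness were looked at for the same array pattern. The middle range of the members' levels, from 1.94 to 4.07, held 3088 genes of every kind, with a median change of 0.030, and 56.7% of them lay above 0. Their mean deviation was -0.17 on the untreated array, 0.077 and 0.022 on the PBS arrays, and -0.076, 0.049 and 0.099 on the rHuEPO arrays in replicate order. The median was 0.084 on slide 1 and 0.0034 on slide 2, below the members' 0.27 and 0.18. The part that brightness plays in the members' change was not tested.

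Promoter sequences were in hand for 69 of the 78 genes (RefSeq, GRCm38.p6, 250 bases before to 50 after the start, both strands searched). They were looked at because the members shared an array pattern, and 4 motifs were sought: GCGC followed after any 2 bases by GCGC, of the type bound by NRF1, CCGGAAG, of the ETS type bound by GABPA, the E-box CACGTG, of the type bound by MYC and MAX, and AAGATGGCG, of the YY1 type. The ETS-type motif was in 26 of the 69 genes (37.7%, against 20.4% of 8994 tested protein-coding genes and 12.95% of 17492 protein-coding genes). The NRF1-type motif was in 14 (20.3%, against 15.1% and 9.61%) and the YY1-type motif in 8 (11.6%, against 3.68% and 2.14%). The E-box was in 5 (7.25%, against 11.8% and 8.91%). No motif contains another.

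The 150 bases before the start are printed for a few genes that together hold every motif. The bases are in lower case on the gene's own strand, with the matches in capitals. Mrpl12, the large-subunit gene with the smallest p, has the NRF1-type motif (chr11:120484487-120484636, plus strand). Mrpl45 has 2 such matches in the printed stretch (chr11:97315566-97315715, plus strand) and another outside it, at bases 15 to 24 after the start. Mrpl53 has 2 ETS-type matches in opposite orientation (chr6:83108958-83109107, plus strand). Mrpl36 has an E-box followed by a YY1-type match (chr13:73330859-73331008, plus strand).
Mrpl12: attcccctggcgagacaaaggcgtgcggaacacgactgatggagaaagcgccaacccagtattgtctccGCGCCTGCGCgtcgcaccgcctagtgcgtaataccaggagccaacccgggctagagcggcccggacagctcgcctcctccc
Mrpl45: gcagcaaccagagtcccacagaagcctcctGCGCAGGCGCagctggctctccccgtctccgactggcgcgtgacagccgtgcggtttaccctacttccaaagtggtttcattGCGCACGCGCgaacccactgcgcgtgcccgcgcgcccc
Mrpl53: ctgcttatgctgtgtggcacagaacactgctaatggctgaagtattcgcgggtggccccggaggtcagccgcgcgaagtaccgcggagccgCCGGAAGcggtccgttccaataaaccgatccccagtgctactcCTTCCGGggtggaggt
Mrpl36: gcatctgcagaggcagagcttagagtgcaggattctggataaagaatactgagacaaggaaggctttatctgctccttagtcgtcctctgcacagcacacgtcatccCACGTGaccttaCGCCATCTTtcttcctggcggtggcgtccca

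The members were also divided by motif, without a test. The median change was 0.18 over the 26 genes with the ETS-type motif and 0.24 over the 43 without it, and 0.19 over the 14 with the NRF1-type motif and 0.22 over the other 55. It was 0.28 over the 8 genes with the YY1-type motif against 0.20 over 61, and 0.23 over the 5 with an E-box against 0.22 over 64. In the searched window Mrps18b, the member with the smallest p, held 1 ETS-type match, at bases 43 to 49 after the start, and Mrps7 held none of the 4 motifs. The factors themselves gave changes of 0.078 ± 0.28 for Nrf1, 0.16 ± 0.27 for Gabpa and 0.050 ± 0.22 for Yy1. For Myc and Max the changes were 0.55 ± 0.41 and -0.082 ± 0.17, and limma called 0 of these factors. A match is a description of letters, and binding was not measured.

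The arms did not overlap in 9 members, all with the rHuEPO arrays on top, 11.5% of the 78 against 5.01% of all genes, and in 0 members were all rHuEPO arrays below all controls (5.39% of all genes). They were Mrps18b, Mrpl12, Mrps7, Mrpl37, Mrpl38, Mrps5, Mrps2, Mrps10 and Mrps34, so 6 of the 26 small-subunit and 3 of the 51 large-subunit genes. With 1 array fewer the arms separate more readily in every gene, so each such count stands beside its own share over all genes. All rHuEPO arrays lay above all controls in 40 members without rHuEPO replicate 1 (15% of all genes), in 19 without PBS replicate 2 (9.56%) and in 16 without PBS replicate 1 (10.4%). The count was 12 without rHuEPO replicate 2 (7.57%), 10 without the untreated array (7.53%) and 9 without rHuEPO replicate 3 (5.98%). All rHuEPO arrays lay below all controls in 1 member without the untreated array (10.8% of all genes). With any other array left out this held for 0 members (7.66% to 12.6% of all genes).

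Mrps18b (NM_025878), a small-subunit protein and 1 of 3 mammalian relatives of bacterial S18, led the list. It read -1.56 on the untreated array, -1.34 and -0.88 on the PBS arrays, and -0.79, -0.56 and -0.36 on the rHuEPO arrays. The groups did not overlap, but PBS replicate 2 came within 0.1 of the nearest rHuEPO array. The change was 0.68 ± 0.23 (SE, 3 against 3 arrays), a 1.61-fold difference, and limma gave an adjusted p of 0.856, or 0.289 when slide was a block. Its relative Mrps18a (NM_026768), whose product sits in the large subunit, had a change of 0.34 ± 0.21, and Mrps18c (NM_026826) one of 0.10 ± 0.29. Neither of these was separated, and the change of Mrps18c was -0.12 against PBS alone. A second, dimmer probe of Mrps18c gave a change of 0.64, also with overlapping arms.

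Mrpl12 (NM_027204) encodes the stalk protein that recruits translation factors to the large subunit. It read 3.45 on the untreated array, 3.81 and 4.05 on the PBS arrays, and 4.24, 4.28 and 4.68 on the rHuEPO arrays. All 3 rHuEPO values lay above all 3 controls, with the untreated array lowest. The change was 0.63 ± 0.23, 1.55-fold, with 0.79 on slide 1 and 0.55 on slide 2 (limma adjusted p = 0.890, or 0.306 in the blocked fit). Mrpl11 (NM_025553) and Mrpl10 (NM_026154), which form the base of the same stalk, had changes of 0.25 ± 0.22 and 0.12 ± 0.20.

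Mrps7 (NM_025305), a protein of the head of the small subunit, read 1.56 untreated, 1.90 and 1.94 after PBS, and 2.20, 2.22 and 2.58 after rHuEPO. Here the arms were apart by more than the spread between the 2 PBS arrays, although the untreated array lay lower still. The change was 0.53 ± 0.20, 1.45-fold (limma adjusted p = 0.912, or 0.316 in the blocked fit). A second, dimmer probe of Mrps7 gave a change of 0.43, with overlapping arms. Mrps5 (NM_029963), which lines the path by which messenger RNA enters, read 2.08 untreated, 2.14 and 2.30 after PBS, and 2.46, 2.53 and 2.68 after rHuEPO. Its change of 0.39 ± 0.17 came with little spread in either arm (SD 0.12 and 0.11), and its other 2 probes gave 0.35 and 0.34. All 3 probes of Mrps5 thus lay on the same side of 0. On the probe with 0.35 the arms overlapped, and on the one with 0.34 they did not.

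Mrps10 (NM_183086) and Mrps2 (NM_080452), both counterparts of bacterial small-subunit proteins, had changes of 0.36 ± 0.18 and 0.36 ± 0.19. Mrps10 read 2.50 untreated, 2.66 and 2.82 after PBS, and 2.85, 2.98 and 3.21 after rHuEPO. For Mrps2 the lowest reading was that of PBS replicate 1 (0.38) and not that of the untreated array (0.74). PBS replicate 2 was at 0.87 and the rHuEPO arrays at 0.99, 0.94 and 1.13. A second, dimmer probe of Mrps2 gave a change of 0.19, with overlapping arms. Mrps34 (NM_023260), a small-subunit protein without a bacterial counterpart, was separated by a margin of less than 0.01. It read 4.20 untreated, 4.52 and 4.50 after PBS, and 4.55, 4.53 and 4.83 after rHuEPO, a change of 0.23 ± 0.18.

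Mrpl37 (NM_025500) and Mrpl38 (NM_024177) are large-subunit proteins that bacteria lack. Mrpl38 read 1.20 untreated, 1.32 and 1.60 after PBS, and 1.63, 1.79 and 1.99 after rHuEPO. Its change of 0.44 ± 0.19 was the same 0.44 on each slide. A second, dimmer probe of Mrpl38 gave a change of 0.49, also with separate arms. Mrpl37 read 1.01 untreated, 1.60 and 1.83 after PBS, and 1.84, 1.94 and 2.02 after rHuEPO. Its change of 0.45 ± 0.24 differed between the slides, 0.83 against 0.26. The untreated reading minus the PBS mean was -0.71.

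**Figure D4:**
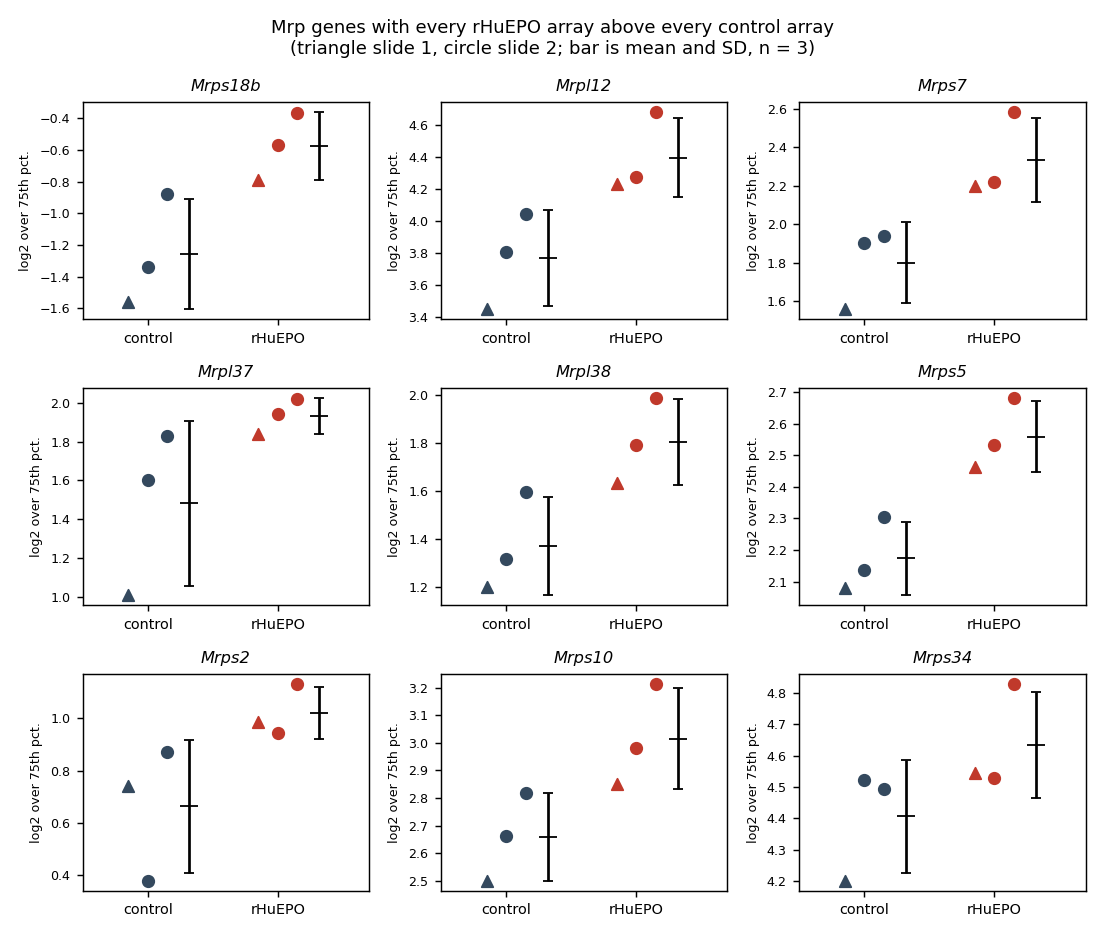
Log2 level over the array's 75th percentile on each array for the 9 genes whose arms did not overlap; triangles are slide 1, circles slide 2, and the black bar gives the mean and SD of each arm (n = 3). The vertical axes differ and do not start at 0; in 8 of the 9 panels the untreated triangle is the lowest point, the exception being Mrps2.

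The other members with the smallest p overlapped between the arms. Mrpl47 (NM_029017), which lies near the exit of the peptide tunnel, read -0.0030 untreated, 0.27 and 0.78 after PBS, and 0.66, 1.10 and 1.12 after rHuEPO, with PBS replicate 2 above rHuEPO replicate 1. Its change was 0.61 ± 0.25. The changes of the large-subunit genes Mrpl52 (NM_026851), Mrpl16 (NM_025606) and Mrpl35 (NM_025430) were 0.60 ± 0.30, 0.62 ± 0.35 and 0.37 ± 0.20. For Mrpl16 rHuEPO replicate 3 stood apart at 3.37, where replicates 1 and 2 read 2.20 and 2.51. Mrpl15 (NM_025300) had the second highest change of all, 0.64 ± 0.42, but with an untreated reading of -1.48 against -0.23 and -0.078 after PBS. In the blocked fit it had the smallest p of the 78, with a limma adjusted p of 0.289.

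Members with well-known roles spread over the range. The change was 0.22 ± 0.20 for Mrpl3 (NM_053159), a core protein next to the peptidyl transferase centre, and 0.32 ± 0.31 for Mrps12 (NM_011885), at the decoding site. Mrps12 stood at 3.28 on the untreated array and at 4.35 and 4.14 after PBS, and against PBS alone its difference was 0.0017. The change was 0.026 ± 0.26 for Mrpl44 (NM_001081210), which has a ribonuclease III-like fold, and 0.15 ± 0.26 for Mrpl58 (NM_026729), a peptidyl-tRNA hydrolase that frees stalled ribosomes. For Mrpl58 the difference was 0.59 on slide 1 and -0.065 on slide 2. It was 0.26 ± 0.19 for Mrpl41 (NM_001031808), also linked to p53 and cell death, and 0.16 ± 0.16 for Mrps30 (NM_021556), once named for a role in apoptosis. On the brightest probe none of these 6 had separate arms. For Mrpl3 the other 2 probes, with changes of 0.26 and 0.47, did have all rHuEPO arrays above all controls.

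The 4 members with a change below 0 were Mrps36 (NM_025369) at -0.11 ± 0.28, Mrpl19 (NM_026490) at -0.049 ± 0.36, Mrpl21 (NM_172252) at -0.043 ± 0.31 and Mrpl14 (NM_026732) at -0.012 ± 0.22. All 4 changes were smaller than their standard errors. With median scaling Mrpl19, Mrpl21 and Mrpl14 turned to 0.024, 0.031 and 0.062, so their sign is not settled. Mrps36 had a second probe with a change of 0.27. It read 2.33 untreated, 2.79 and 3.07 after PBS, and 2.17, 2.71 and 2.98 after rHuEPO on the brighter probe, with the arms fully interleaved.

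Both subunits lay mostly above 0. The median change was 0.20 over 51 large-subunit genes, 48 of them above 0, and 0.24 over 26 small-subunit genes, all 26 above 0. By the same nomenclature, genes classed as bacterial-type had a median of 0.21 (43 of 46 above 0). Those classed as mitochondria-specific had 0.23 (31 of 31), a class that includes Mrps18a and Mrps18b although they are relatives of bacterial S18. The difference between these groups was not tested. More than 1 tested probe was available for 25 members, and the probes of 4 of them, Mrpl1, Mrpl45, Mrps25 and Mrps36, differed in sign. For Mrpl1 the brightest probe gave 0.44, and the other 2 gave 0.062 and -0.40, the last from a dim probe for another transcript of the gene.

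The comparison of the untreated array with PBS showed the spread inside the control arm. The untreated array lay below the PBS mean for all but 3 members (40.8% of all genes lay above), with a median of -0.48 against -0.11 over all genes. In 74 members it was below both PBS arrays, a count that has no share over all genes beside it. The difference reached -1.43 ± 0.36 for Mrpl54 and -1.32 ± 0.43 for Mrpl15, and the 3 members above the PBS mean were Mrpl10 at 0.24, Mrps2 at 0.11 and Mrpl9 at 0.11. Limma called 0 of the 78 (0% of all genes; smallest adjusted p = 0.676), and at an unadjusted p under 0.05 it listed 9, all lower (5.41% of all genes in either direction). The lone untreated array was taken to vary like the other groups. This array was also on the other slide, so that slide, injection and sample cannot be told apart. Between rHuEPO and PBS, in a fit with 3 groups, limma also called 0 of the 78 (0.0202% of all genes). At an unadjusted p under 0.05 it listed 0 members in either direction (1.95% of all genes higher), and rHuEPO replicate 1 was there set against arrays of another slide.

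The rest of the mitochondrial translation machinery was read from lists, none of whose members passed the test over all genes, with or without slide as a block. Beside the counts given here, 47.3% of all genes lay above 0, 5.01% were separated higher and 5.39% lower. The 5 mitoribosome proteins with other names all lay above 0, with Gadd45gip1 at 0.28 ± 0.23, Chchd1 at 0.28 ± 0.23 and Ptcd3 at 0.23 ± 0.21. Assembly factors of the mitoribosome had a median of 0.17, with 21 of 24 above 0 and 6 separated. Their leading members were Mrm3, a methyltransferase of the large ribosomal RNA, at 0.60 ± 0.22, the GTPase Noa1 at 0.55 ± 0.21 and the RNA-binding protein Fastkd2 at 0.48 ± 0.19. Translation factors had a median of 0.21 (15 of 16 above 0, 2 separated), among them the elongation factor Tsfm at 0.35 ± 0.17, Mtres1, which rescues stalled ribosomes, at 0.49 ± 0.25 and the messenger RNA-binding Lrpprc at 0.24 ± 0.17.

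Mitochondrial tRNA synthetases and their partners had a median of 0.14 (17 of 20 above 0 and 7 separated higher, against 47.3% and 5.01% of all genes). Mars2 was at 0.48 ± 0.23, Yars2 at 0.38 ± 0.19 and Gatc at 0.31 ± 0.17. These charge the tRNAs that the ribosome uses. Genes of mitochondrial DNA transcription and replication had a median of 0.11 (8 of 10 above 0), led by Top1mt, the mitochondrial topoisomerase, at 0.37 ± 0.17, the helicase Twnk at 0.36 ± 0.27 and the RNA polymerase Polrmt at 0.20 ± 0.20. Of the regulators of mitochondrial biogenesis 7 of 10 lay above 0, with a median of 0.064. The transcriptional coactivator Pprc1 was at 0.41 ± 0.26, Myc at 0.55 ± 0.41 and the coactivator Ppargc1b at 0.29 ± 0.21. Their differences were 0.14, -0.080 and -0.060 on slide 1 and 0.54, 0.87 and 0.46 on slide 2.

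Set beside the members, respiratory chain and ATP synthase subunits had a median of 0.10 (75 of 80 above 0, 1 separated higher and 1 lower). Cytosolic ribosomal proteins had a median of 0.043 (58 of 81 above 0, 0 separated). Over all genes 47.3% lay above 0, 5.01% were separated higher and 5.39% lower. Among the subunits Cox6b2 was at 0.69 ± 0.23, Cox7a1 at -0.35 ± 0.18 and Atp5b at 0.61 ± 0.41. The cytosolic list was taken by symbol, which also lets in genes named as like a ribosomal protein, such as Rpl7l1 and Rpl39l. In that list Rpl7l1 was at 0.36 ± 0.19, Rpl39l, well above background on 3 arrays, at -1.69 ± 1.00 and Rps19 at 0.32 ± 0.29. Nucleolar ribosome biogenesis genes, which serve the cytosolic ribosome, had a median of 0.59 (30 of 30 above 0, 21 separated), with Noc4l at 0.92 ± 0.20, Rrp9 at 0.86 ± 0.23 and Noc2l at 0.72 ± 0.19. Against PBS alone the medians were 0.050 for the members, -0.074 for the respiratory chain, -0.067 for cytosolic ribosomal proteins and 0.51 for the nucleolar genes. These lists were compared by their medians only, so no difference between them was tested.

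**Figure D5:**
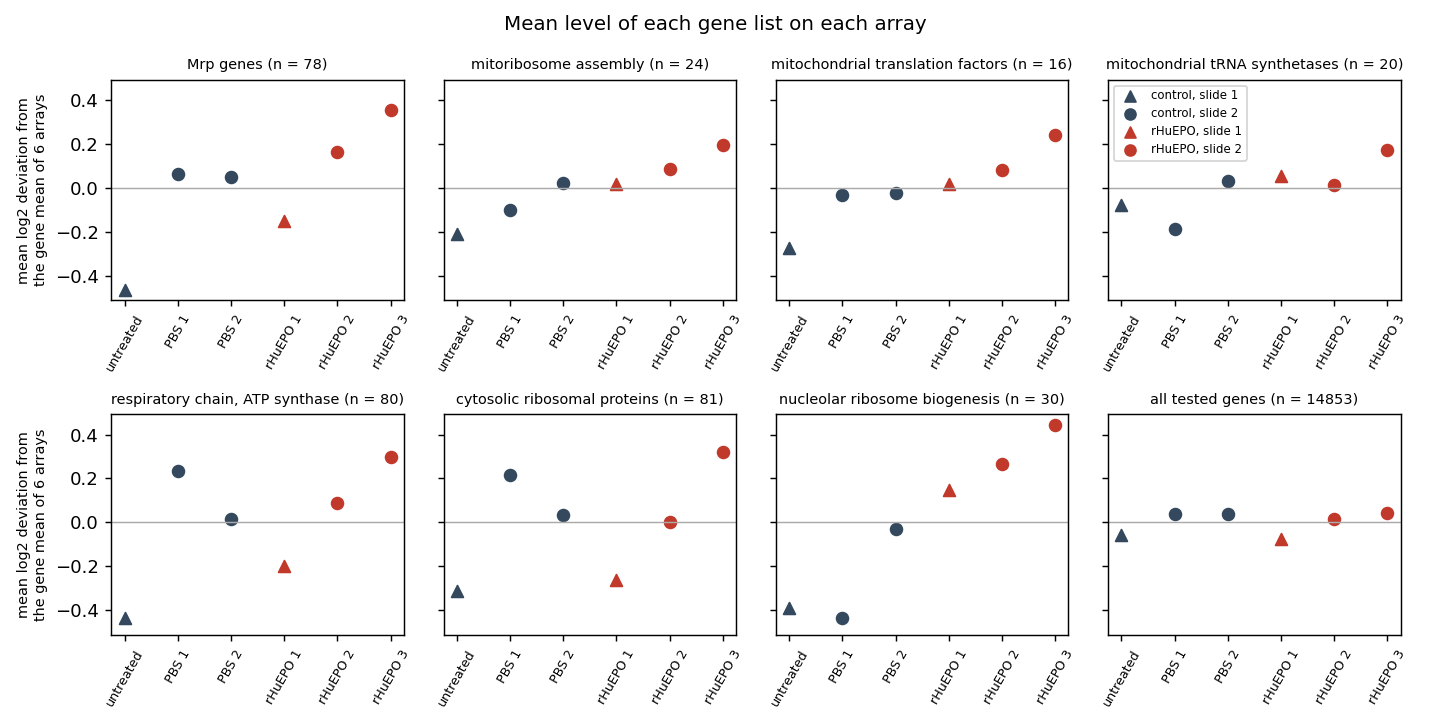
Mean over the genes of each list of the log2 value minus the gene's own mean over the 6 arrays, 1 point per array (triangles slide 1, circles slide 2; dark for control, red for rHuEPO). For Mrp genes the untreated array is at -0.47 and rHuEPO 1 at -0.15, both slide 1; for the nucleolar genes all 3 rHuEPO arrays lie above all 3 controls.

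Cell type markers also differed between the arrays. Beside the counts given here, 47.3% of all genes lay above 0, 5.01% were separated higher and 5.39% lower. Of 14 erythroid markers 11 lay above 0 with a median of 0.39, and 5 were separated, all higher. At an unadjusted limma p under 0.05 there were 4 higher and 0 lower (2.44% and 2.51% of all genes). The mean deviation of the erythroid markers was between -0.55 and 0.043 on the control arrays and between 0.061 and 0.29 on the rHuEPO arrays. It was lowest on PBS replicate 1 and not, like the members, on the untreated array. The neutrophil markers had a median of 0.0064, with deviations of -0.24 to 0.40 on the control and -0.24 to 0.17 on the rHuEPO arrays. Those of B lineage ran from -1.39 on PBS replicate 1 to 0.95 on PBS replicate 2, and proliferation genes had a median of -0.0093. Monocyte and macrophage markers had a median of 0.34 (10 of 12 above 0, 2 separated), with deviations of -0.23 to -0.067 on the control and -0.053 to 0.31 on the rHuEPO arrays. T and NK cell markers had a median of 0.19 (7 of 9 above 0). The medians were -0.17 for B lineage (2 of 10 above 0), -0.27 for eosinophil, basophil and mast cells (1 of 7), -0.14 for megakaryocytes (1 of 10) and -0.22 for stroma and endothelium (2 of 8). Megakaryocyte markers ran from -1.20 on rHuEPO replicate 1 to 0.88 on rHuEPO replicate 2, and stromal markers from -0.93 on PBS replicate 1 to 0.89 on the untreated array. Of the markers with a matched probe, Cd4 and Ncr1 were too dim to test. The part of cell composition in the members' change was not tested.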

How the data were processed

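The authors deposited Agilent Feature Extraction 10.7.3.1 scanner files of spot intensity, background-subtracted by the scanner software per the file headers, and a value table of log2 values. The sources used here do not say how that table was scaled. Its columns matched the values computed here from the scanner files once every probe's median was taken off (slopes 0.9988 to 1.001, column medians -0.103 to 0.117), and it served as an alternative. Control spots (1639) and flagged spots were left out, no gene spot was saturated, and each array's 75th percentile was subtracted from its log2 processed signals. A probe was tested when well above background on at least 3 of 6 arrays, which left 19590 probes and 14853 genes, each by its brightest probe. Names came from a RefSeq table of GRCm38.p6, which matched 64.8% of 41157 probes. The array design refers to another build, so no gene coordinates from it are given.

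Tests used R 4.3.3 and limma 3.58.1 (lmFit, eBayes, two-sided, Benjamini-Hochberg over all genes, threshold 0.05), 3 rHuEPO against 3 control arrays, with slide as a block beside it. The fit was also tested on simulated data, but the outcome is not given here and no result rests on it. Members and lists were chosen with earlier results of these data known. Genes named in full are the 12 members with the smallest p, those below 0, 13 fixed members, and for each companion list the 3 with the smallest p; Mrpl15, Mrpl10 and others at the ends of a range are added. Alternatives were other scalings, filters, probes, controls, blocks and single arrays left out.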

Additional observations from a re-analysis of the deposited data

How the results depend on the processing

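The count of 0 members called held under every alternative run, in all 3 comparisons. The members' median change stayed above 0 throughout, from 0.050 with PBS as the only control to 0.36 without rHuEPO replicate 1, and 46 to 77 members lay above 0. It was 0.30 with median scaling and 0.18 with quantile scaling, where the all-gene median was 0.059 and -0.021. The number of separated members, in either direction, ran from 9 to 40 with 1 array left out, where 13.6% to 27.7% of all genes were separated. Small changes turned sign. With median scaling Mrpl19, Mrpl21 and Mrpl14 gave 0.024, 0.031 and 0.062. With quantile scaling Mrpl44 gave -0.019, with normexp Mrps18c gave -0.019, and with the mean of all probes Mrps36 gave 0.079. With array weights Mrpl21 and Mrpl14 gave 0.14 and 0.021. With PBS as the only control the values were -0.11 for Mrpl44, -0.10 for Mrpl58 and -0.12 for Mrps18c, and the medians were -0.067 for cytosolic ribosomal proteins, -0.022 for biogenesis regulators and -0.074 for the respiratory chain. Within slide 1 Mrpl19, Mrpl14, Mrpl44 and the biogenesis regulators gave 0.21, 0.046, -0.13 and -0.042, and within slide 2 Mrpl21 and Mrpl58 gave 0.065 and -0.065. With 1 array left out the ranges were -0.16 to 0.12 for Mrpl14, -0.41 to 0.18 for Mrpl19, -0.27 to 0.22 for Mrpl21, -0.16 to 0.24 for Mrpl44, -0.10 to 0.38 for Mrpl58, -0.12 to 0.33 for Mrps18c and -0.31 to 0.12 for Mrps36. The medians ranged from -0.098 to 0.18 for cytosolic ribosomal proteins, -0.022 to 0.18 for biogenesis regulators and -0.074 to 0.25 for the respiratory chain. The cause of these turns was not tested.

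With the replicate number as a block 0 members were called in any comparison, the members' median was 0.094, Mrpl44 and Mrps18c gave -0.19 and -0.12, and the medians of cytosolic ribosomal proteins and the respiratory chain were -0.11 and -0.026. The labels tie the number to nothing shared. In their deviations, rHuEPO and PBS arrays of like number correlated at -0.071 and -0.16. The deviations of the 2 PBS arrays mirror each other, so that rHuEPO replicate 1 correlated at 0.071 with PBS replicate 2. These correlations therefore cannot show whether samples of like number were paired.

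Normexp as planned could not be fitted on PBS replicate 2, where a few spots had a local background of up to 62790.5 against a median of 33. It was run, as a choice made after seeing the data, with flagged backgrounds set to the array median.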
